A study of Homo sapiens with 6 samples.

Results

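The endoplasmic reticulum (ER) chaperones and the sensors of unfolded protein were followed in a human lung adenocarcinoma cell line and in its derivative. The set was a list of 37 gene symbols taken from textbook knowledge of the pathway, and 34 of them had a row among the 12659 genes of the deposited table of expression values. DNAJB11, TXNDC5 and DERL3 had no row and were not analysed here. NCI-H1650Re (spelt NCI_H1650Re in the labels) carries the time point post-SCLC, after transformation to small cell lung cancer, and NCI-H1650 (NCI_H1650), an established line with an activating EGFR deletion, the time point pre-LUAD. Polyadenylated RNA of 3 libraries of each line was sequenced. The labels state no treatment, and neither the agent nor the clones used to obtain NCI-H1650Re are given in the sources used here. The replicates are not stated to be separate cultures, so p-values measure the spread between these libraries, which may be technical.

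All 5 epithelial markers checked (EPCAM, CDH1, KRT8, KRT18 and KRT7) had rows, with summed levels of 2925 to 2989 FPKM in NCI-H1650Re and 2812 to 3744 in NCI-H1650. CDH1, EPCAM and KRT8 were lower in NCI-H1650Re (0.568, 0.704 and 0.723 times the mean in NCI-H1650; limma adjusted p = 0.00234, 0.00812 and 0.0214), while KRT18 and KRT7 did not pass. FPKM is the number of sequenced fragments scaled by transcript length and by library depth, so levels can be set side by side between genes. The neuroendocrine markers CHGA, SYP and CHGB had rows, at a sum of 5.24 to 9.78 FPKM in NCI-H1650Re and 3.40 to 4.46 in NCI-H1650, while INSM1 and NEUROD1 had none; CHGA alone of the 3 passed (6.01-fold higher, limma adjusted p = 0.0101). Of 6 fibroblast markers COL1A1 and COL3A1 had rows, summing to 23.0 to 40.1 FPKM in NCI-H1650Re and 10.1 to 13.0 in NCI-H1650, and COL3A1 passed (3.22-fold higher, limma adjusted p = 0.00277). Of 5 immune markers only CD14 had a row and was lower (limma adjusted p = 0.00199), at 0.130 to 0.290 FPKM in NCI-H1650Re and 1.09 to 1.86 in NCI-H1650, and none of 4 endothelial markers did. The part of these markers in the results was not tested. Estimated depth was 18100000 to 21600000 fragments for NCI-H1650Re and 17000000 to 22300000 for NCI-H1650. Replicate 3 stood apart in each line: replicates 1 and 2 correlated at r = 0.994 in NCI-H1650Re and 0.997 in NCI-H1650, whereas pairs with replicate 3 gave 0.980 and 0.988 in NCI-H1650Re and 0.988 and 0.990 in NCI-H1650, across genes.

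Secreted and membrane proteins enter the ER through the Sec61 channel and fold there with the help of chaperones such as BiP (HSPA5), of the lectins calnexin and calreticulin, and of disulfide isomerases. When unfolded protein accumulates, IRE1 (ERN1) splices the mRNA of the transcription factor XBP1, ATF6 is cut to release another factor, and PERK (EIF2AK3) phosphorylates eIF2 alpha, which lowers translation and favours ATF4. Their nuclear products are known to raise chaperones and the genes of ER-associated degradation, which returns misfolded proteins to the cytosol. Part of this response acts through the ER stress response element (ERSE) in promoters, bound by ATF6 together with NF-Y and also by XBP1.

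The ERSE is a documented link between chaperone genes and ATF6 and XBP1, so matches to it and to 2 related elements in the members' promoters are shown here. Only 9 of the 34 member promoters searched held a match to any of these elements. The ERSE was searched as CCAAT, any 9 bases and CCACG, the ERSE-II as ATTGG, any 1 base and CCACG, and the core of the UPRE, another element of the response, as TGACGTG, all on both strands. The windows were 300 bases, 250 before and 50 after the gene start that RefSeq gives (GRCh38.p14), and 34 of the 37 symbols matched one. Of the genes shown, the start lies just outside the span that GENCODE release 29 gives the gene for HSPA5 and HYOU1 and inside it for the others, and the printed stretches of HSP90B1, CRELD2 and CANX lie wholly inside that span. Matches to ERSE lay in 6 member promoters (17.6%), against 22 of all 27305 promoters (0.0806%) and 12 of the 8767 promoters of tested genes (0.137%). ERSE-II lay in 3 member promoters (8.82%), against 15 of all promoters (0.0549%). The UPRE core lay in 1 (2.94%), against 546 of all promoters (2.0%). The members were listed as textbook genes of the response that acts in part through the ERSE. The choice of list thus favoured a higher share of matches among them. A match is a string of letters in this window and not a measured site. The 6 genes with an ERSE match are given first, then the 3 with an ERSE-II match, each 5′ to 3′ on the gene's strand, with the fixed letters of the matches in capitals (on the other strand an ERSE match reads CGTGG and then ATTGG, and an ERSE-II match CGTGG and then CCAAT):
HSPA5, chr9:125241383-125241418, minus strand: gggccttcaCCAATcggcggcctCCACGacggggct
XBP1, chr22:28800594-28800629, minus strand: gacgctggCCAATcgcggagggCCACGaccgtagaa
CRELD2, chr22:49918546-49918581, plus strand: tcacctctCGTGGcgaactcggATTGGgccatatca
HSP90B1, chr12:103930210-103930242, plus strand: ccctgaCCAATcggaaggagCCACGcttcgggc
CALR, chr19:12938377-12938409, plus strand: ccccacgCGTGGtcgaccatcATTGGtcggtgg
CANX, chr5:179698771-179698803, plus strand: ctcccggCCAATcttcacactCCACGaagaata
HYOU1, chr11:119057267-119057397, minus strand: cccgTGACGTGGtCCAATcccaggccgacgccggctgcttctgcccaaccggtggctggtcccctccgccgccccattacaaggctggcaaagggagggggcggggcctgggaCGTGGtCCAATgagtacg
HERPUD1, chr16:56932018-56932042, plus strand: gacgccgATTGGgCCACGttgggag
SDF2L1, chr22:21642107-21642131, plus strand: tcggaagCGTGGaCCAATcaaaacc

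In HYOU1 the UPRE core overlaps the first of its 2 ERSE-II matches, and HSP90B1 has a second ERSE match, nearer to its start, that is not shown. Of the 9 genes with a match, XBP1, HSPA5 and HYOU1 passed the test described next, all higher in NCI-H1650Re, with log2 changes of 0.96, 0.34 and 0.29. This share is close to the 30.5% of all tested genes that passed. The other 6 did not pass: CRELD2 (0.10), SDF2L1 (-0.05), CANX (-0.08), CALR (-0.15), HSP90B1 (-0.15) and HERPUD1 (-0.17). Genes with a match thus had log2 changes of both signs, and no match was found in the promoters of ERO1A, P4HB, PDIA6 and ATF6, which passed as lower, or of PPP1R15A, PPP1R15B, ERN1 and SELENOS, which passed as higher.

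**Figure D1:**
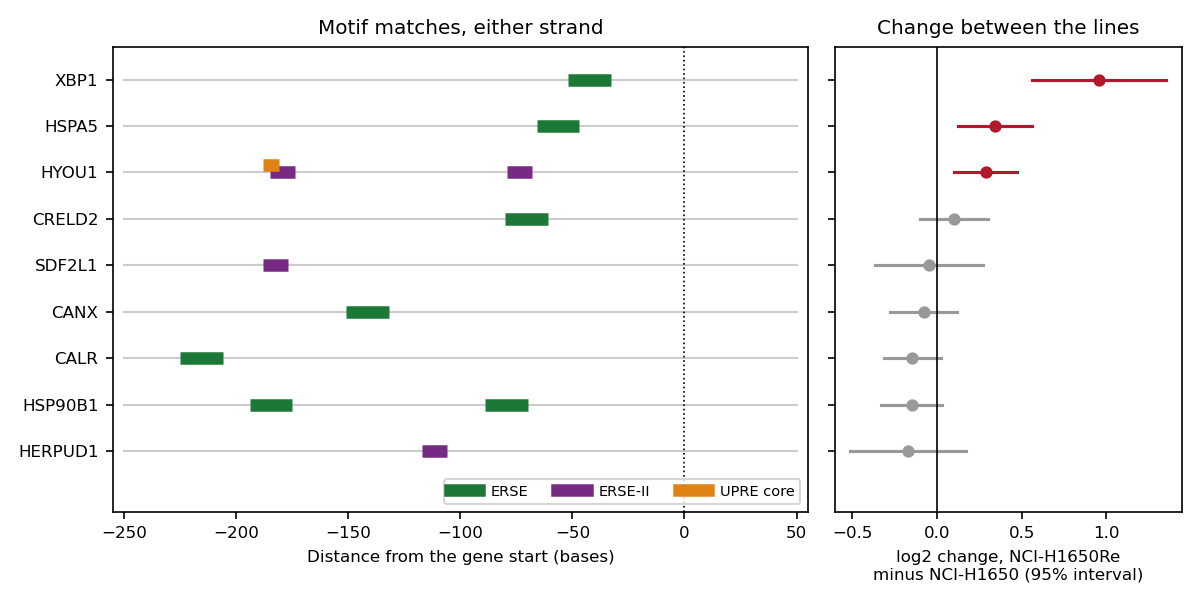
Left, position of each ERSE, ERSE-II and UPRE core match (coloured bars) relative to the gene start, in bases, for the 9 members that hold one. Right, log2 change of the same genes, NCI-H1650Re minus NCI-H1650, with 95% intervals; red marks an adjusted p under 0.05 and grey a gene that did not pass. The 3 genes that passed are XBP1, HSPA5 and HYOU1, while the intervals of the other 6 include 0.

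Between the lines, members of several roles differed. The sensor ERN1, the factor XBP1, both regulatory subunits of the eIF2 alpha phosphatase, the chaperones HSPA5 and HYOU1, and SELENOS were higher in NCI-H1650Re. The oxidase ERO1A, 3 protein disulfide isomerases and ATF6 were lower. All 34 members entered the test, which took genes whose mean reached 1 FPKM in one of the lines or both. With limma on log2(FPKM + 1), 7 members were higher and 5 lower at a Benjamini-Hochberg adjusted p under 0.05, and 22 did not pass. The 12 members are 35.3% of the 34, close to the 30.5% of all 11764 tested genes that passed. Of all tested genes 16.6% were higher and 13.9% lower. The members' median log2 change was -0.07, against 0.03 over all tested genes. The libraries of the lines did not overlap for 15 members (44.1%), against 47.2% of all tested genes. These were the 12 that passed and MANF, OS9 and ERP44. XBP1, PPP1R15A, PPP1R15B, ERO1A and PDIA6 passed under every one of the 15 alternative settings run, while the other 7 lost the call under at least 1. Without both replicate 3 libraries 8 members were higher and 9 lower, when 43.2% of all genes passed.

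**Figure D2:**
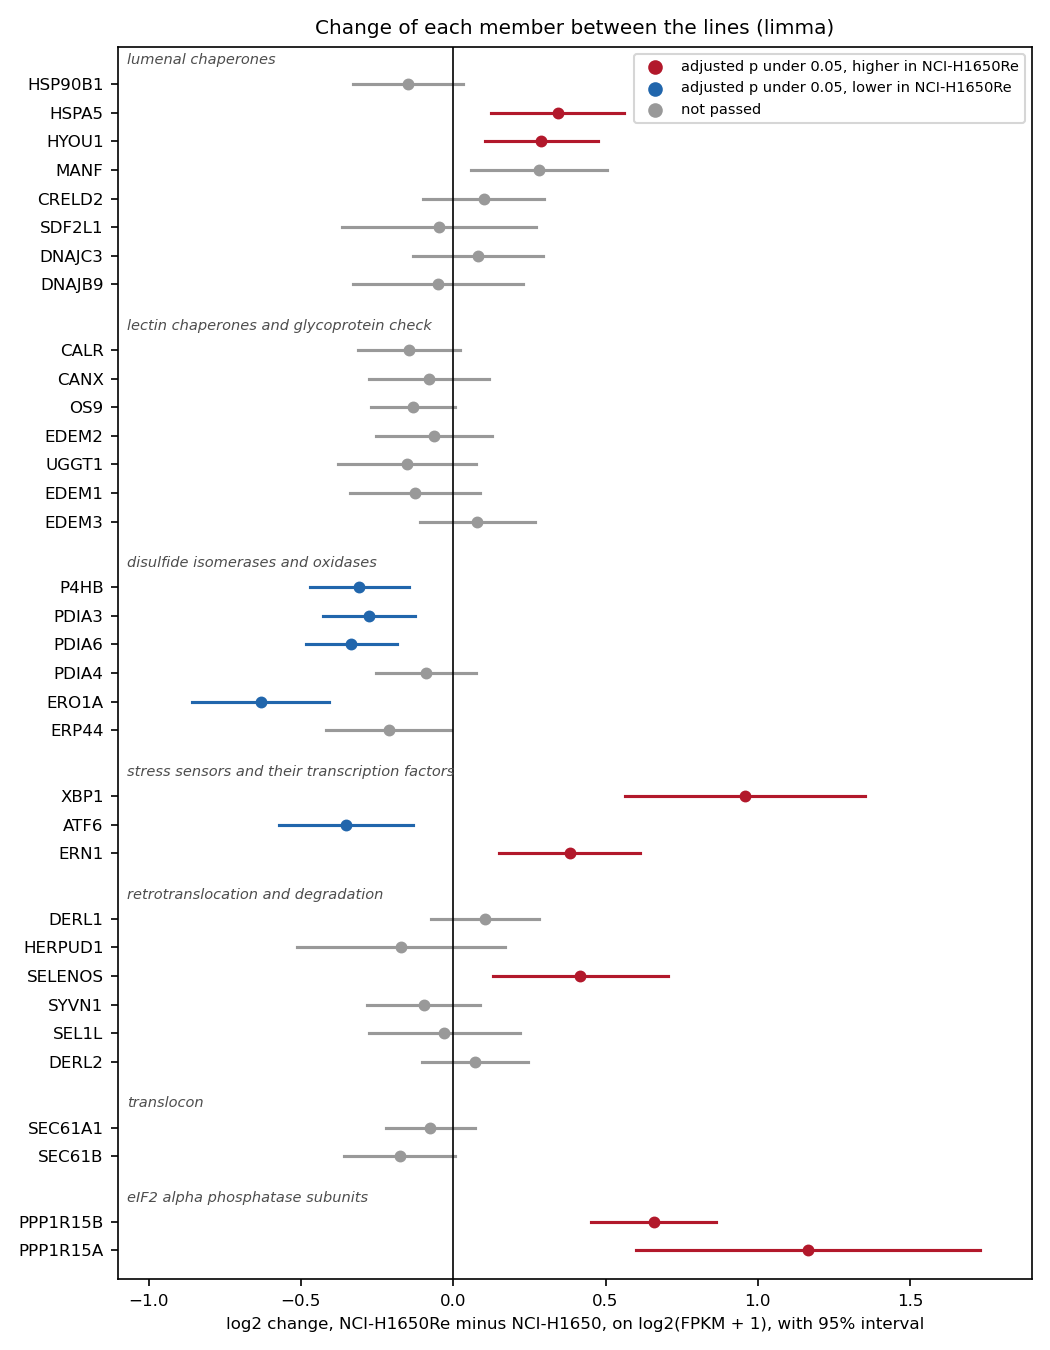
Difference of log2(FPKM + 1) for each of the 34 members (NCI-H1650Re minus NCI-H1650), grouped by role. Points are limma estimates and lines 95% intervals; red and blue mark members at an adjusted p under 0.05. The changes run from 1.16 for PPP1R15A to -0.63 for ERO1A, and none of the 7 lectin and glycoprotein genes passed.

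Among the sensors and their factors, all 3 members passed (against 30.5% of all tested genes), ERN1 and XBP1 upward and ATF6 downward. The calls of ERN1 and ATF6 were lost on leaving out some single libraries, as given below. XBP1, the factor that IRE1 activates by splicing its mRNA, was at 46.5, 66.9 and 73.5 FPKM in replicates 1, 2 and 3 of NCI-H1650Re, against 29.3, 28.3 and 35.8 in NCI-H1650. Every NCI-H1650Re library lay above every NCI-H1650 library, and NCI-H1650Re replicate 1 was the lowest of its line. The mean was 2.0-fold higher in NCI-H1650Re (log2 change 0.96, SE 0.170, limma adjusted p = 0.00575). XBP1 lies at chr22:28794555-28800597 (minus strand, GRCh38, GENCODE release 29), where the 24 nearest tested genes had a median log2 change of 0.19, with 9 higher and none lower. The values are per gene, so spliced and unspliced XBP1 mRNA could not be told apart.

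ERN1, which encodes the kinase and nuclease IRE1 alpha, had the lowest level of the set in either line. It stood at 1.52, 1.79 and 1.70 FPKM in NCI-H1650Re, against 1.03, 0.920 and 1.20 in NCI-H1650. The lines did not overlap (log2 change 0.38, SE 0.0999, limma adjusted p = 0.0246). On levels this low the pseudocount of 1 shrinks the difference, and the log2 change with a pseudocount of 0.01 was 0.67. ATF6 encodes the sensor that is cut in the Golgi. It was at 5.46, 6.01 and 7.12 FPKM in NCI-H1650Re, against 8.16, 8.37 and 7.92 in NCI-H1650. All NCI-H1650Re libraries were below all NCI-H1650 libraries, with replicate 3 of NCI-H1650Re nearest to them (log2 change -0.35, SE 0.0950, limma adjusted p = 0.0273). The call of ERN1 was lost on leaving out replicate 2 of NCI-H1650Re (limma adjusted p = 0.103) or, of NCI-H1650, replicate 1 (0.0733) or 2 (0.104). That of ATF6 was lost on leaving out replicate 1 (0.0672) or 2 (0.0986) of NCI-H1650Re or any library of NCI-H1650 (0.0776, 0.103 and 0.0508 for replicates 1, 2 and 3).

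The ratio of XBP1 to ATF6 within a library does not depend on how libraries are scaled to each other. XBP1 was 8.52, 11.1 and 10.3 times the level of ATF6 in NCI-H1650Re, against 3.59, 3.38 and 4.53 times in NCI-H1650. The pair joins a gene that was higher to one that was lower, with no overlap of the lines in either. Separation of the ratio follows from that choice and is no added evidence. The third sensor, EIF2AK3, was not a member and was chosen for mention after its values were seen. It was at 8.09 ± 0.740 FPKM in NCI-H1650Re and 8.96 ± 1.0 in NCI-H1650 (SD, n = 3 libraries each) and did not pass (log2 change -0.13, limma adjusted p = 0.350).

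**Figure D3:**
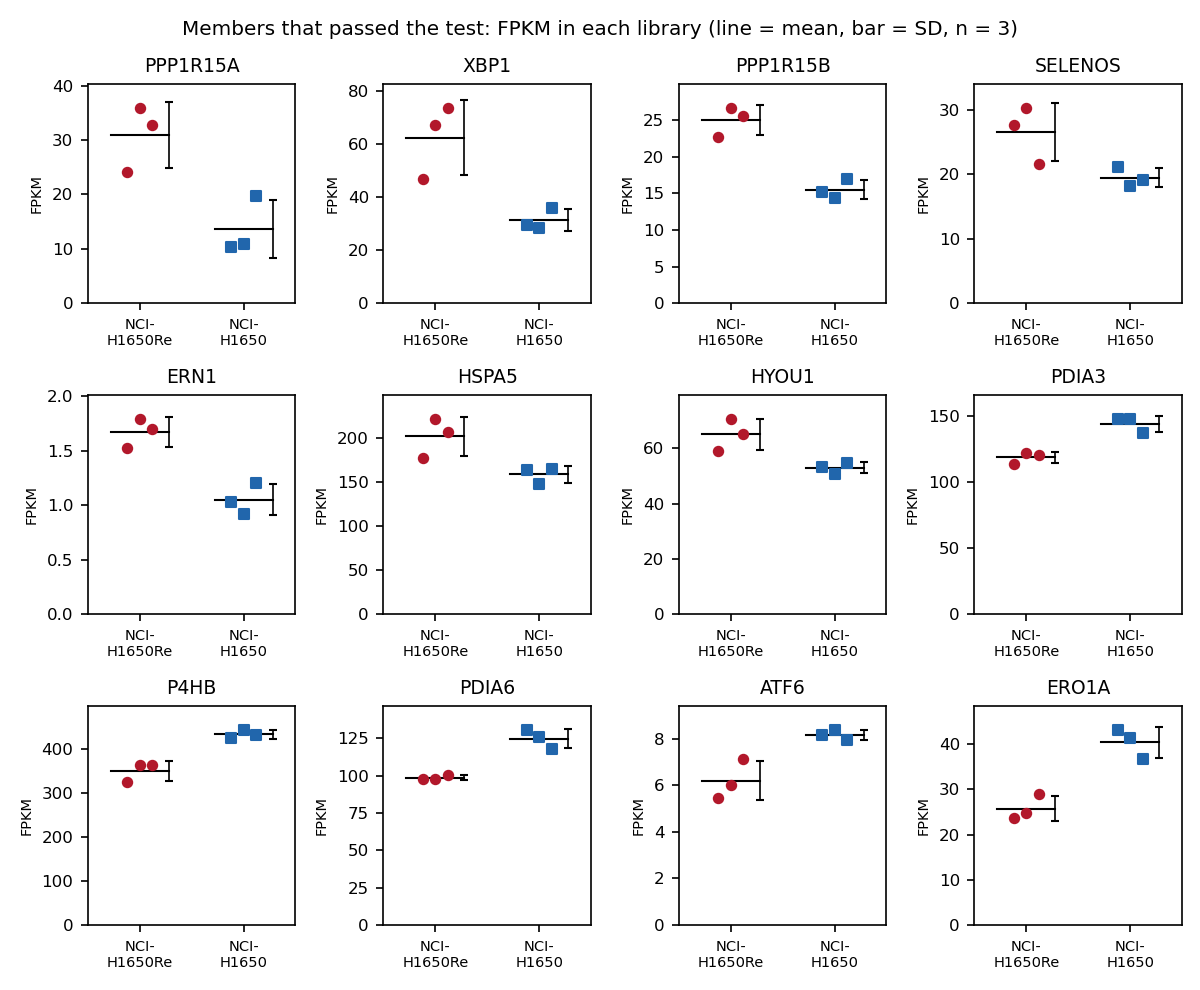
FPKM in each library for the 12 members that passed, in order of their log2 change, with NCI-H1650Re (red) left of NCI-H1650 (blue); horizontal lines are means and bars SDs of 3 libraries. In each panel the libraries of the lines do not overlap.

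Of the 8 lumenal chaperones and cofactors tested, HSPA5 and HYOU1 were higher in NCI-H1650Re (25.0%, against 16.6% of all tested genes) and 6 did not pass. HSPA5, the Hsp70 of the ER that also holds the sensors inactive, was at 178, 222 and 207 FPKM in NCI-H1650Re, against 164, 148 and 164 in NCI-H1650. HYOU1, the exchange factor that resets it, was at 59.2, 70.6 and 65.3 FPKM in NCI-H1650Re, against 53.2, 50.9 and 54.8 in NCI-H1650. Neither gene overlapped between lines, and in both NCI-H1650Re replicate 1 was the library nearest to the other line. The means were 1.27-fold and 1.23-fold higher in NCI-H1650Re (log2 change 0.34, SE 0.0945, and 0.29, SE 0.0800; limma adjusted p = 0.0295 and 0.0299). HSP90B1, the Hsp90 of the ER, did not pass. It was at 306, 322 and 340 FPKM in NCI-H1650Re and 377, 367 and 329 in NCI-H1650. Its lines overlapped through replicate 3 (log2 change -0.15, 95% interval -0.33 to 0.03, limma adjusted p = 0.181). The ratio of HSPA5 to HSP90B1 within a library was 0.582, 0.688 and 0.609 in NCI-H1650Re, against 0.434, 0.403 and 0.499 in NCI-H1650. HSPA5 was higher without overlap and the change of HSP90B1 was negative. Separation of this ratio thus largely follows from the choice of the pair and is no added evidence. Pseudogenes are known for HSP90B1 and XBP1, and reads that they share leave these values uncertain.

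MANF, a secreted cofactor of HSPA5, was at 45.4, 48.1 and 39.0 FPKM in NCI-H1650Re, against 38.6, 36.6 and 33.2 in NCI-H1650. The lines did not overlap, by a margin of less than 1 FPKM between NCI-H1650Re replicate 3 and NCI-H1650 replicate 1, and the gene missed the threshold (log2 change 0.28, limma adjusted p = 0.0610). It passed without NCI-H1650Re replicate 3 (limma adjusted p = 0.0126). CRELD2 (36.8 ± 3.63 FPKM in NCI-H1650Re, 34.2 ± 1.37 in NCI-H1650), SDF2L1 (20.8 ± 4.25 and 21.2 ± 0.807), and the J-domain proteins DNAJC3 (4.52 ± 0.541 and 4.21 ± 0.218) and DNAJB9 (3.63 ± 0.630 and 3.77 ± 0.391) overlapped between the lines (SD, n = 3 libraries each). DNAJB9 is a target of spliced XBP1, and DNAJC3 an inhibitor of PERK. HSPA5 and HYOU1 no longer passed on leaving out replicate 2 of NCI-H1650Re (limma adjusted p = 0.116 and 0.121) or, of NCI-H1650, replicate 1 (0.0651 and 0.0788) or 2 (0.120 and 0.122).

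None of the 7 lectin chaperones and genes of the glycoprotein check passed (against 30.5% of all tested genes), and their log2 changes ran from -0.15 to 0.08. CALR, calreticulin, had the highest level of the set, at 516, 552 and 520.5 FPKM in NCI-H1650Re and 625, 585 and 550.1 in NCI-H1650. Its lines overlapped only in that NCI-H1650Re replicate 2 exceeded NCI-H1650 replicate 3 (log2 change -0.15, 95% interval -0.31 to 0.02, limma adjusted p = 0.161). CANX, calnexin, its membrane-bound relative, was at 144, 157 and 151 FPKM in NCI-H1650Re and 176, 158 and 145 in NCI-H1650, and overlapped more widely (log2 change -0.08, limma adjusted p = 0.503). The ratio of CALR to CANX was 3.57, 3.53 and 3.44 in NCI-H1650Re and 3.54, 3.70 and 3.80 in NCI-H1650. CANX lies on chromosome 5 among genes that were lower in NCI-H1650Re: of its 24 nearest tested genes 11 were lower and 1 higher, with a median log2 change of -0.26.

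OS9, a lectin that hands glycoproteins to degradation, was at 75.2 ± 1.14 FPKM in NCI-H1650Re and 82.6 ± 2.47 in NCI-H1650 (SD, n = 3 libraries each). Its lines did not overlap, yet the change was small and did not pass (log2 change -0.13, 95% interval -0.27 to 0.01, limma adjusted p = 0.129). UGGT1, which re-glucosylates misfolded glycoproteins, was at 15.6 ± 0.468 and 17.6 ± 2.28 FPKM. The mannosidase-like proteins EDEM1 (13.5 ± 1.53 and 14.7 ± 0.592), EDEM2 (21.3 ± 1.9 and 22.2 ± 0.841) and EDEM3 (5.86 ± 0.519 and 5.48 ± 0.176) overlapped between NCI-H1650Re, given first, and NCI-H1650. The intervals of the 7 genes lie between -0.38 and 0.27 on the log2 scale, so larger changes than these are outside all of them. UGGT1 passed as lower without NCI-H1650 replicate 3 (limma adjusted p = 0.0478).

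Of 6 disulfide isomerases and oxidases tested, 4 were lower in NCI-H1650Re, none was higher, and the other 2 also had negative changes. The 4 genes are 66.7% of the group, beside 13.9% of all tested genes that were lower, and the group was not tested as a set. ERO1A, the oxidase that supplies disulfides to the isomerases and is also known as hypoxia-induced, was at 23.6, 24.7 and 28.9 FPKM in NCI-H1650Re, against 43.1, 41.4 and 36.6 in NCI-H1650. The lines were well separated, with the replicate 3 libraries closest to each other. Its mean in NCI-H1650Re was 0.637 times that in NCI-H1650 (log2 change -0.63, SE 0.0973, limma adjusted p = 0.00340). The gene lies at chr14:52639916-52695900 (minus strand), where the median log2 change of the 24 nearest tested genes was 0.16.

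P4HB, the prototype protein disulfide isomerase, is also a subunit of the collagen prolyl hydroxylase. It was at 324, 362 and 362 FPKM in NCI-H1650Re, against 423, 442 and 431 in NCI-H1650. PDIA3, the isomerase that works with calnexin and calreticulin, was at 114, 122 and 120.3 FPKM in NCI-H1650Re, against 148, 148 and 137 in NCI-H1650. PDIA6, which acts on HSPA5 clients and on the sensors, was at 98.0, 97.8 and 101 FPKM in NCI-H1650Re, against 131, 126 and 118 in NCI-H1650. In all 3 genes each NCI-H1650Re library was below each NCI-H1650 library, and the log2 changes were of like size, -0.31 (SE 0.0698), -0.28 (SE 0.0653) and -0.33 (SE 0.0650), with limma adjusted p of 0.0145, 0.0167 and 0.00819. PDIA4 was at 90.8 ± 5.90 FPKM in NCI-H1650Re and 96.5 ± 2.77 in NCI-H1650, and overlapped (log2 change -0.09, limma adjusted p = 0.369).

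ERP44, which retrieves ERO1A from the Golgi, was at 11.9 ± 1.1 FPKM in NCI-H1650Re and 13.9 ± 0.898 in NCI-H1650 (log2 change -0.21, limma adjusted p = 0.106); its lines did not overlap. Summed over the 6 genes, the disulfide group held 664, 712 and 709 FPKM in NCI-H1650Re, against 858, 869 and 828 in NCI-H1650. PDIA3 lost its call on leaving out replicate 2 of NCI-H1650Re (limma adjusted p = 0.0563) or, of NCI-H1650, replicate 1 (0.0597) or 2 (0.0837), and P4HB on leaving out replicate 2 of NCI-H1650 (0.0717).

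Of 6 retrotranslocation and degradation genes 1 passed (16.7%, against 30.5% of all tested genes). This was SELENOS, a selenoprotein of the retrotranslocation complex, at 27.7, 30.3 and 21.6 FPKM in NCI-H1650Re, against 21.0, 18.2 and 19.1 in NCI-H1650. NCI-H1650Re replicate 3 lay just above the highest NCI-H1650 library (log2 change 0.42, SE 0.124, limma adjusted p = 0.0381). The ubiquitin ligase SYVN1 was at 17.6 ± 1.62 FPKM in NCI-H1650Re and 18.8 ± 0.208 in NCI-H1650, and its partner SEL1L at 16.3 ± 1.10 and 16.7 ± 2.29 (SD, n = 3 libraries each). The derlins, candidate channel proteins, were at 39.9 ± 2.08 FPKM in NCI-H1650Re and 37 ± 2.6 in NCI-H1650 for DERL1, and at 7.92 ± 0.512 and 7.48 ± 0.321 for DERL2. HERPUD1, which organises the ligase complex, was at 14.1, 17.7 and 22.5 FPKM in NCI-H1650Re, against 21.0, 19.4 and 20.1 in NCI-H1650. The NCI-H1650Re libraries thus lay on both sides of NCI-H1650. HERPUD1 lies at chr16:56932048-56944863, where 18 of the 24 nearest tested genes were lower in NCI-H1650Re and the median log2 change was -0.47. Its own log2 change was -0.17 (limma adjusted p = 0.407), and it passed as lower without NCI-H1650Re replicate 3 (-0.33, limma adjusted p = 0.0386). SELENOS lost its call with quantile normalization (limma adjusted p = 0.0541) and on leaving out replicate 1 (0.0908) or 2 (0.132) of NCI-H1650Re or any library of NCI-H1650 (0.0612, 0.133 and 0.0873 for replicates 1, 2 and 3).

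Neither translocon subunit passed (against 30.5% of all tested genes). SEC61A1, the channel, was at 110, 121 and 117 FPKM in NCI-H1650Re and 124, 120.1 and 122 in NCI-H1650 (log2 change -0.07, limma adjusted p = 0.394). SEC61B, its beta subunit, was at 72.6 ± 5.42 FPKM in NCI-H1650Re and 82.1 ± 4.64 in NCI-H1650 (log2 change -0.18, limma adjusted p = 0.128). Both genes overlapped between the lines.

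Both regulatory subunits of the eIF2 alpha phosphatase, which reverses the PERK signal, were higher in NCI-H1650Re (as were 16.6% of all tested genes). PPP1R15A (GADD34), the stress-induced subunit, was at 24.1, 35.9 and 32.7 FPKM in NCI-H1650Re, against 10.3, 10.8 and 19.7 in NCI-H1650. NCI-H1650 replicate 3 stood well above the other libraries of its line but stayed below the lowest NCI-H1650Re library. The mean was 2.27-fold higher in NCI-H1650Re, the largest rise among the members (log2 change 1.16, SE 0.243, limma adjusted p = 0.0107). PPP1R15A was the only member for which read counts were deposited: 1164, 1842 and 1407 in NCI-H1650Re, against 548, 498 and 797 in NCI-H1650. On these counts edgeR's quasi-likelihood test gave a log2 change of 1.18 (adjusted p = 0.00485 over the 860 genes with counts). The authors had marked these genes as regulated in the same libraries. A low adjusted p was thus favoured by that choice and is no separate evidence. PPP1R15A lies at chr19:48872392-48876057, among genes with a median log2 change of 0.22, of which 6 of 24 were higher and 1 lower.

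PPP1R15B (CReP), the constitutive subunit, was at 22.8, 26.7 and 25.6 FPKM in NCI-H1650Re, against 15.2, 14.4 and 16.9 in NCI-H1650. The lines were separated by more than the range within either (log2 change 0.66, SE 0.0890, limma adjusted p = 0.00214, the lowest of the members). The ratio of PPP1R15A to PPP1R15B was 1.06, 1.34 and 1.28 in NCI-H1650Re, against 0.681, 0.751 and 1.16 in NCI-H1650, so NCI-H1650 replicate 3 fell within the range of NCI-H1650Re. With 3 libraries a line, the smallest p of an exact permutation test (two-sided) is 0.1, and each of the 12 members that passed limma reaches that value because its lines do not overlap.

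Levels covered more than 2 orders of magnitude, from ERN1 to CALR, and 8 members exceeded 100 FPKM in NCI-H1650. Summed over the 34 members, the level was 2514, 2757 and 2671 FPKM in NCI-H1650Re, against 2897, 2805 and 2706 in NCI-H1650, which is 0.677%, 0.733% and 0.706% of all FPKM in NCI-H1650Re and 0.779%, 0.751% and 0.711% in NCI-H1650. The lines overlapped in both measures. HSPA5 relative to P4HB, a chaperone that was higher set against an isomerase that was lower, stood at 0.550, 0.613 and 0.571 in NCI-H1650Re, against 0.387, 0.335 and 0.382 in NCI-H1650. Separation of this ratio likewise follows from the choice of the pair. In the authors' deposited table, 11 of the 12 members that passed limma had an FDR under 0.05 and none of the other 22 did. HYOU1 was the exception, with an FDR of 0.0804. The authors marked PPP1R15A alone as regulated, and XBP1 had a log2 fold change of 0.97 there.

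**Figure D4:**
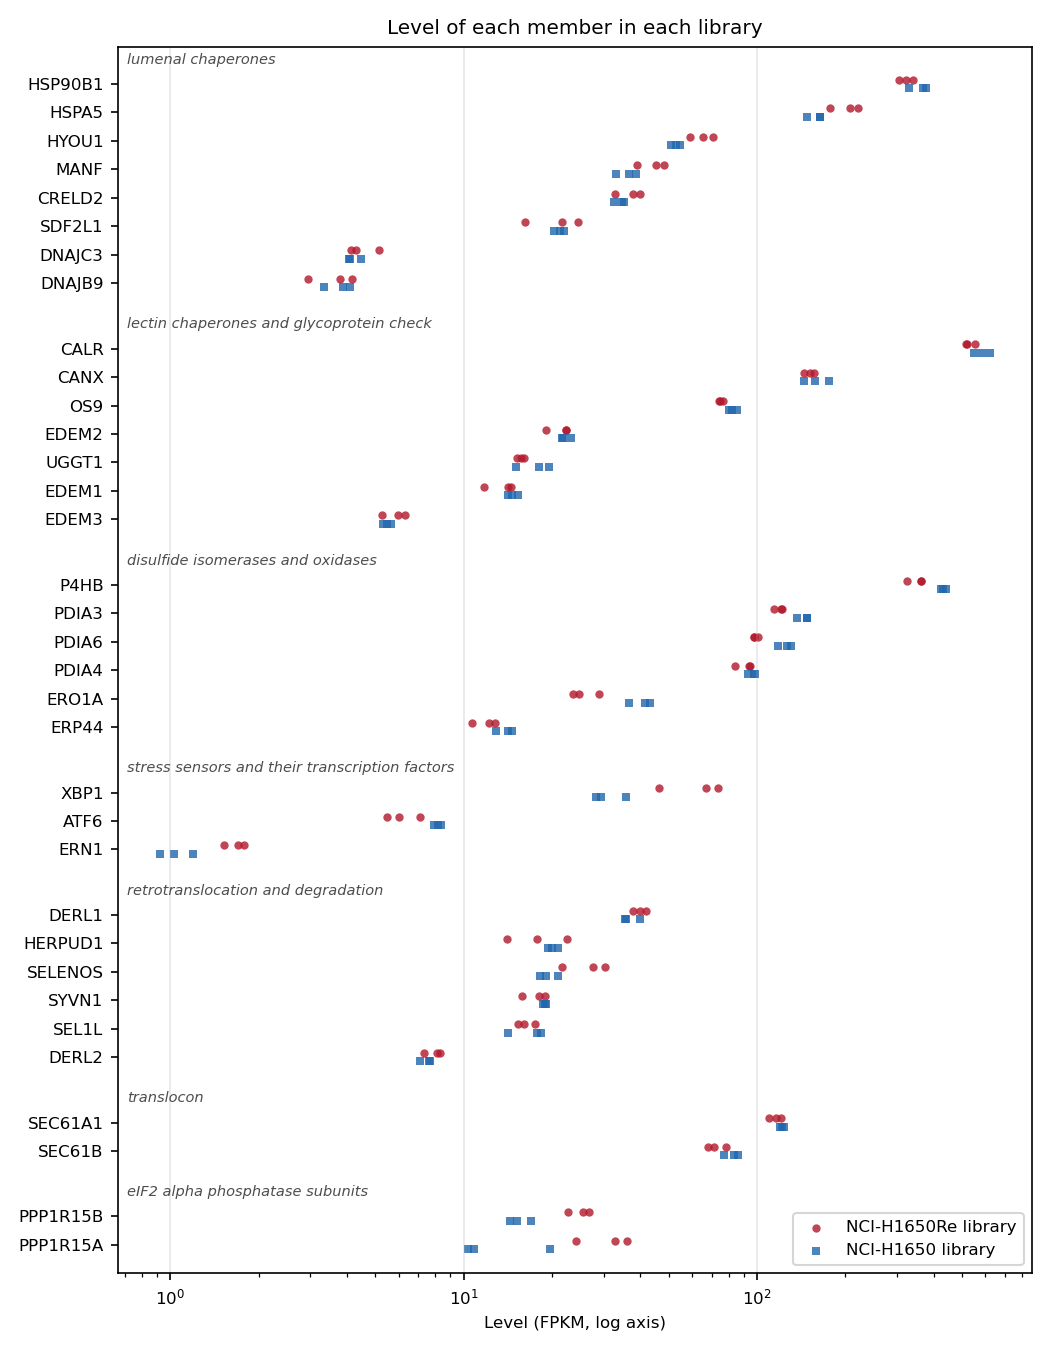
FPKM of each of the 34 members in each library on a log axis, grouped by role; red circles are NCI-H1650Re libraries and blue squares NCI-H1650 libraries. Members run from means of 1.67 FPKM in NCI-H1650Re and 1.05 in NCI-H1650 (ERN1) to 529.5 and 587 (CALR), and the ratio of the means is farthest from 1 for PPP1R15A, XBP1, PPP1R15B, ERN1 and ERO1A.

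Beyond the members, 109 further genes of ER folding, import, degradation and signalling were listed, of which 97 were tested. Of these 7 were higher and 17 lower in NCI-H1650Re (24.7%, against the 30.5% of all tested genes), with a median log2 change of -0.06. Among 19 other folding enzymes and cochaperones none was higher and 5 were lower (26.3% passed, against 30.5% of all tested genes). TXNDC11, a membrane-bound disulfide isomerase, was at 17.9 ± 1.19 FPKM in NCI-H1650Re and 37.1 ± 0.745 in NCI-H1650, and QSOX1, a sulfhydryl oxidase, at 34.5 ± 8.85 and 59.5 ± 4.51. SIL1, which like HYOU1 exchanges nucleotide on HSPA5 but was lower, was at 14.8 ± 1.40 FPKM in NCI-H1650Re and 24.7 ± 0.802 in NCI-H1650, and CRELD1, a relative of CRELD2, at 2.64 ± 0.580 and 4.44 ± 0.644 (SD, n = 3 libraries each). In this order the log2 changes of the 4 genes were -1.02, -0.80, -0.70 and -0.59, with limma adjusted p of 0.000227, 0.0106, 0.00118 and 0.0190. The fifth, named after its values were seen, was TXNDC16. TXNDC11 lies on chromosome 16, where 15 of its 24 nearest tested genes were lower and none higher. SIL1 lies on chromosome 5, where 9 of 24 were lower and 1 higher. Near QSOX1, CRELD1 and TXNDC16, 4, 4 and 5 of 24 were higher and 2, 1 and 2 lower. Of all tested genes 16.6% were higher and 13.9% lower.

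Of 20 other degradation genes 1 was higher and 3 lower (20% passed, against 30.5% of all tested genes). SVIP, an inhibitor of degradation, was at 0.593 ± 0.230 FPKM in NCI-H1650Re and 2.02 ± 0.0781 in NCI-H1650, and the mannosidase MAN1B1 at 28 ± 3.0 and 38.2 ± 0.201. UBE2J2, a conjugating enzyme, was at 13.7 ± 2.67 FPKM in NCI-H1650Re and 9.06 ± 0.396 in NCI-H1650 (limma adjusted p from 0.00199 for SVIP to 0.0173 for UBE2J2). Of 33 other translocon and oligosaccharide genes 1 was higher and 7 lower (24.2% passed, against the same 30.5%). SEC61G, the third subunit of the channel, was at 59.3 ± 7.11 FPKM in NCI-H1650Re and 90.8 ± 10.5 in NCI-H1650, SPCS3 of the signal peptidase at 13.6 ± 1.45 and 18.2 ± 1.58, and SSR1 at 10.1 ± 1.39 and 13.5 ± 1.11. Of the 24 neighbours of each, in this order, 9, 2 and 5 were lower and 4, 3 and 5 higher. SEC61A2, a second form of the channel, was at 8.79 ± 0.658 FPKM in NCI-H1650Re and 5.24 ± 0.251 in NCI-H1650, and 18 of its 24 neighbours on chromosome 10 were also higher (limma adjusted p from 0.00140 for SEC61A2 to 0.0273 for SSR1).

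Among 25 other genes of the signal arms, 5 were higher and 2 lower (28% passed, close to the 30.5% of all tested genes). ATF4, the factor translated when eIF2 alpha is phosphorylated, was at 227 ± 13.2 FPKM in NCI-H1650Re and 102 ± 1.15 in NCI-H1650 (log2 change 1.14, SE 0.0665, limma adjusted p = 0.000172). TRIB3, its pseudokinase target, was at 67.6 ± 15.0 FPKM in NCI-H1650Re and 20.5 ± 5.55 in NCI-H1650 (log2 change 1.68, limma adjusted p = 0.00155). The others that were higher, named after their values were seen, were BAX, CEBPB and TRAF2. CREB3L1, a membrane-tethered factor processed like ATF6, was at 0.330 ± 0.130 FPKM in NCI-H1650Re and 1.47 ± 0.220 in NCI-H1650, and BFAR, an ER-resident regulator of cell death, at 22 ± 1.8 and 38.3 ± 2.22 (SD, n = 3 libraries each; limma adjusted p = 0.00221 and 0.000895). BFAR lies on chromosome 16, where 21 of its 24 neighbours were lower and none higher. The part of such neighbourhoods in the values of these genes, and of HERPUD1, CANX, XBP1 and PPP1R15A, was not tested.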

How the data were processed

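The authors' table gives FPKM for 12659 genes in 6 libraries, with an adjusted p-value (FDR) and a log2 fold change per gene, per the file headers. A second deposited table adds read counts, only for 860 genes that carry the authors' mark of regulation. HISAT2, Bowtie2, RSEM and DESeq2 are named, with no version, in the submitters' processing notes, as is the mouse build mm10, although the identifiers are human; the human build, the filter on rows and the strand setting are not given in the sources used here. Values were used as deposited. limma with a variance trend was fitted on log2(FPKM + 1) for the 11764 genes whose mean reached 1 FPKM in either line or both. The fit was coded NCI-H1650Re minus NCI-H1650, with Benjamini-Hochberg adjustment over all of these genes at 0.05. It was also run on simulated data, with no outcome given here, so that run is no evidence for the member calls. Because FPKM is not a count, edgeR and DESeq2 served as alternatives for the deposited counts alone, with library sizes from the ratio of counts to FPKM in 122 genes, and transcript lengths of 6 of them for the level of depth. Precision is limited by 3 libraries per line.

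Members, lists, motifs and alternatives were chosen with earlier results of these data known; no set test was run. Library values are given for each member that passed, for the sensors and major chaperones, and for members of at least 100 FPKM in either line, with other members as ranges or means; of other pathway genes up to 4 per list are named, those past the threshold with the largest change. Some genes of these lists are not reported here. A few further members' library values, such as those of MANF and HERPUD1, were added after they were seen. Protein ends, planned as a description, were not analysed here. Neighbours are the 12 nearest tested genes on each side in GENCODE release 29, matched by identifier for 11909 genes. Promoters came from RefSeq (GRCh38.p14), where PDIA3, DERL1 and DERL3 were not matched. The software was limma 3.58.1 in R 4.3.3, with edgeR 4.0.16 and DESeq2 1.42.0 for the counts, and Python 3.11.15 (figures with matplotlib 3.10.9).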

Additional observations from a re-analysis of the deposited data

How the results depend on the processing

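With other pseudocounts, filters, scalings, the replicate block or no variance trend, 6 to 8 members were higher, 5 lower, and 2795 to 3711 genes changed in all. Leaving out each library in turn gave 3 to 8 members higher, 2 to 6 lower, 1785 to 4478 genes changed and a median member change of -0.106 to -0.0183; the low counts came without NCI-H1650 replicate 1 (2386 genes), NCI-H1650 replicate 2 (1785) or NCI-H1650Re replicate 2 (1898), and fewer libraries were then tested. Without both replicate 3 libraries 9 members were lower, with HSP90B1 (limma adjusted p = 0.0209), UGGT1 (0.0429), ERP44 (0.0227) and HERPUD1 (0.0449) added, and the cause was not tested. With the replicate block 8 were higher, MANF among them (0.0315), and it changed no other member's call. Same-numbered libraries deviated together at r = 0.173, -0.0369 and 0.211, and unlike-numbered ones at -0.259 to 0.230. The main fit did not take the numbers as pairs. Signs changed only in 4 members that never passed: on leaving out 1 library, SEL1L ran from -0.1406 to 0.038, DNAJB9 from -0.1326 to 0.0634, EDEM2 from -0.1013 to 0.0104 and SDF2L1 from -0.1708 to 0.1159, with SEL1L at 0.038, 0.0134 and 0.0121 without NCI-H1650 replicates 1 and 2 and NCI-H1650Re replicate 1, DNAJB9 at 5e-04 and 0.0634 without NCI-H1650 replicate 3 and NCI-H1650Re replicate 1, EDEM2 at 0.0104 without NCI-H1650Re replicate 1, and SDF2L1 at 0.1159 without NCI-H1650Re replicate 3 and 0.1201 without both replicate 3 libraries. DESeq2 on the deposited counts gave PPP1R15A a log2 change of 1.18 (adjusted p = 0.000556). These counts cover only genes already marked as regulated, so that p is no separate evidence either. Depth is an estimate, and counts behind the other members were not used here.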

Other observations

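Further groups of ER genes, listed after the results above were known but without regard to their values, were described in the same fit. Of 21 tested genes of the export coat, cargo receptors and KDEL receptors, which carry folded proteins out and bring chaperones back, none was higher in NCI-H1650Re and 4 were lower (19.0% passed, against 30.5% of all tested genes; 13.9% of all tested genes were lower). TMED9, a cargo receptor, was at 173, 189.9 and 203 FPKM in NCI-H1650Re, against 329.95, 341 and 297 in NCI-H1650 (log2 change -0.77, SE 0.0853, limma adjusted p = 0.00101). SEC24A, SAR1B and the lectin receptor LMAN1 had log2 changes of -0.38, -0.34 and -0.33 (limma adjusted p = 0.00979, 0.0154 and 0.0438). TMED9 lies on chromosome 5 with 10 of 24 neighbours lower and 1 higher, beside the 13.9% of all tested genes that were lower. SEC24A and SAR1B lie on the same chromosome with 13 of 24 lower and 1 higher. LMAN1 lies on chromosome 18 with 8 of 24 lower and 1 higher. The part of these neighbourhoods was not tested.

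The KDEL receptors, which retrieve chaperones such as HSPA5 and P4HB from the Golgi, did not pass: KDELR1 was at 172 ± 6.47 FPKM in NCI-H1650Re and 194 ± 10.4 in NCI-H1650, KDELR2 at 133 ± 7.38 and 142 ± 3.54, and KDELR3 at 18.9 ± 3.29 and 25.1 ± 2.55 (SD, n = 3 libraries each; limma adjusted p = 0.0992, 0.314 and 0.0554). Of 7 receptors of ER autophagy only RETREG1 passed (14.3%, against 30.5% of all tested genes). It was lower in NCI-H1650Re at 6.42 ± 0.331 FPKM, against 8.26 ± 0.139 in NCI-H1650 (log2 change -0.32, limma adjusted p = 0.0119). None of 9 tested genes of calcium pumps, channels and regulators linked to the ER passed (against 30.5% of all tested genes). Their median log2 change was -0.10.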
